A study of Mus musculus with 6 samples.

Results

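Mirtrons are miRNAs cut from short introns. The spliced and debranched intron folds into a hairpin by itself, so the Drosha step that most miRNAs need is skipped, and Dicer then releases a 5p and a 3p arm. An intron opens with GU and closes with AG, so a mirtron hairpin can carry the splice sites at its ends. The miRNAs described here are the arms of the mouse mirtrons miR-1224 and miR-877: mmu-miR-1224-5p, mmu-miR-1224-3p, mmu-miR-877-5p and mmu-miR-877-3p, written below without the species prefix. They were taken by name, 4 of the 1881 mouse miRNAs on the array, with 12 of its 4415 probes. The set was also selected on the signal brightness of miR-1224-5p, among the highest of the series, so that brightness is given as a description only.

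The miRNAs were measured in exosomes, the small vesicles that cells release, from the supernatant of RAW 264.7 cells, a mouse macrophage cell line. The 3 control samples came from normal cells. The 3 LPS samples came from cells given 2 µg/mL lipopolysaccharide (LPS), a bacterial cell wall component sensed by TLR4, with supernatant taken after 72 h. No culture time is given for the controls, so LPS and culture time cannot be told apart. Every sample is the same line, each was run on 1 Agilent one-colour array, and nothing says that replicates were separate cultures, so p-values measure only how these samples differ among themselves, and that spread may be technical. Fewer vesicles and less miRNA per vesicle cannot be told apart in such bulk RNA.

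The hairpins are shown because their ends are those of an intron, marked in capitals.
Mir1224: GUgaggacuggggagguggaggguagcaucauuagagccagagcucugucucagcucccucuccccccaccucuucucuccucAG
Mir877: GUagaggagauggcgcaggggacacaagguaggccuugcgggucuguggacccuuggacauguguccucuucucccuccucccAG

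Both sequences are RefSeq entries on GRCm38.p6, and both hairpins are 85 bases long. Mir1224 lies on chromosome 16 from 20604452 to 20604536 on the plus strand, inside Vwa5b2 (20589428 to 20605378, plus strand). Mir877 lies on chromosome 17 from 35960730 to 35960814 on the minus strand, inside Abcf1 (35956819 to 35969750, minus strand), which encodes an ABC-family protein that works in translation initiation. Each hairpin is read in the direction of its host gene. The exon structure of the hosts was not used here; that both hairpins are introns of these genes is background knowledge. Opening with GU and closing with AG is uncommon among the 1005 mouse hairpins in the RefSeq table, where 30 (2.99%) do so.

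The 4 mature arms are shown with the seed, bases 2 to 8, in capitals, since the seed sets which mRNAs a miRNA can pair with.
miR-1224-5p: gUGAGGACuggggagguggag
miR-877-5p: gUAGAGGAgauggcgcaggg
miR-1224-3p: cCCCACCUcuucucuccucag
miR-877-3p: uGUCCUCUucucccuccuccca

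Each 5p arm starts at base 1 of its hairpin, at the splice donor. miR-1224-3p ends on the last base of its hairpin, and miR-877-3p ends 1 base before it. The 5p arms are purine-rich, 81.0% A and G in miR-1224-5p and 80.0% in miR-877-5p. The 3p arms are the polypyrimidine side, 85.7% C and U in miR-1224-3p and 90.9% in miR-877-3p, and they share a run of 9 bases (CCUCUUCUC). No seed is shared among the 4 arms, and no other mature mouse miRNA in the table has any of the 4 seeds.

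miR-1224-5p was measured with a pair of probes that differ by 1 base. They are shown because they gave different answers, with the added base in capitals.
10-base probe: ctccacctcc
11-base probe: ctccacctccC

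The probes pair with bases 12 to 21 and 11 to 21 of miR-1224-5p. No other mature mouse miRNA in the table holds the full complement of either probe. Each was printed in 15 spots per array.

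The arrays differed in overall brightness between the groups. Of all miRNAs, 198 were detected on all 6 arrays, and before scaling their 75th percentile was 477 ± 41.0 on control arrays (SD, n = 3). On LPS arrays it was 2229 ± 180 (SD, n = 3), or 4.67 times as much. The 4 spiked-in RNAs went the other way: the LPS arrays read 3062 ± 206 and the control arrays 3490 ± 83.5 as their geometric mean (SD, n = 3), 0.877 of the control. The control arrays detected 213 to 228 miRNAs and the LPS arrays 412 to 446. The labels give no slide positions. Read from the deposited files' names, all arrays shared 1 slide, with the controls and LPS 1 in its first row and LPS 2 and LPS 3 in its second. Of 6 macrophage and blood cell miRNAs looked for, 5 were detected on all arrays and miR-142a-5p in LPS only. After the scaling described below the macrophage markers miR-155-5p, miR-223-3p and miR-142a-3p differed by 4.18, 1.08 and 0.68 on the log2 scale, all called higher in LPS. Liver and red cell markers were detected on none of the arrays (0 of 4), and so were muscle markers (0 of 3). Of the epithelial markers 1 of 5 was detected, miR-200c-3p, in LPS only, and of the neural markers 1 of 3, miR-128-3p, on all arrays. The part of these differences in the results below was not tested.

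miR-1224-5p was the brightest miRNA on each control array and the second brightest, after miR-6931-5p, on each LPS array. miR-1224-5p is the arm that the splice donor begins, and its share of the summed signal of detected miRNAs was 13.7% ± 0.687 on control arrays and 7.94% ± 0.511 on LPS arrays (SD, n = 3). A rank or share of this kind also reflects how well a probe binds.

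The signal of the 11-base probe of miR-1224-5p, before scaling, was 13155, 16670 and 15017 on the control arrays and 50970, 51882 and 52831 on the LPS arrays. The LPS arrays were all brighter, 3.47 times in the mean, and the groups did not overlap. The 3.47-fold rise was smaller than that of the 75th percentile over the 198 miRNAs seen on every array, 4.67-fold. It was larger than the rise of the 75th percentile over all miRNAs. Scaling by the latter left an LPS minus control difference of 0.77 on the log2 scale. The signal of the 10-base probe of miR-1224-5p was 1420, 1722 and 1592 on the control arrays and 12966, 14202 and 14088 on the LPS arrays. This probe was 8.71 times brighter in LPS, a larger rise than that of either percentile. The groups were again apart, and no spot on any array was flagged as saturated.

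**Figure D1:**
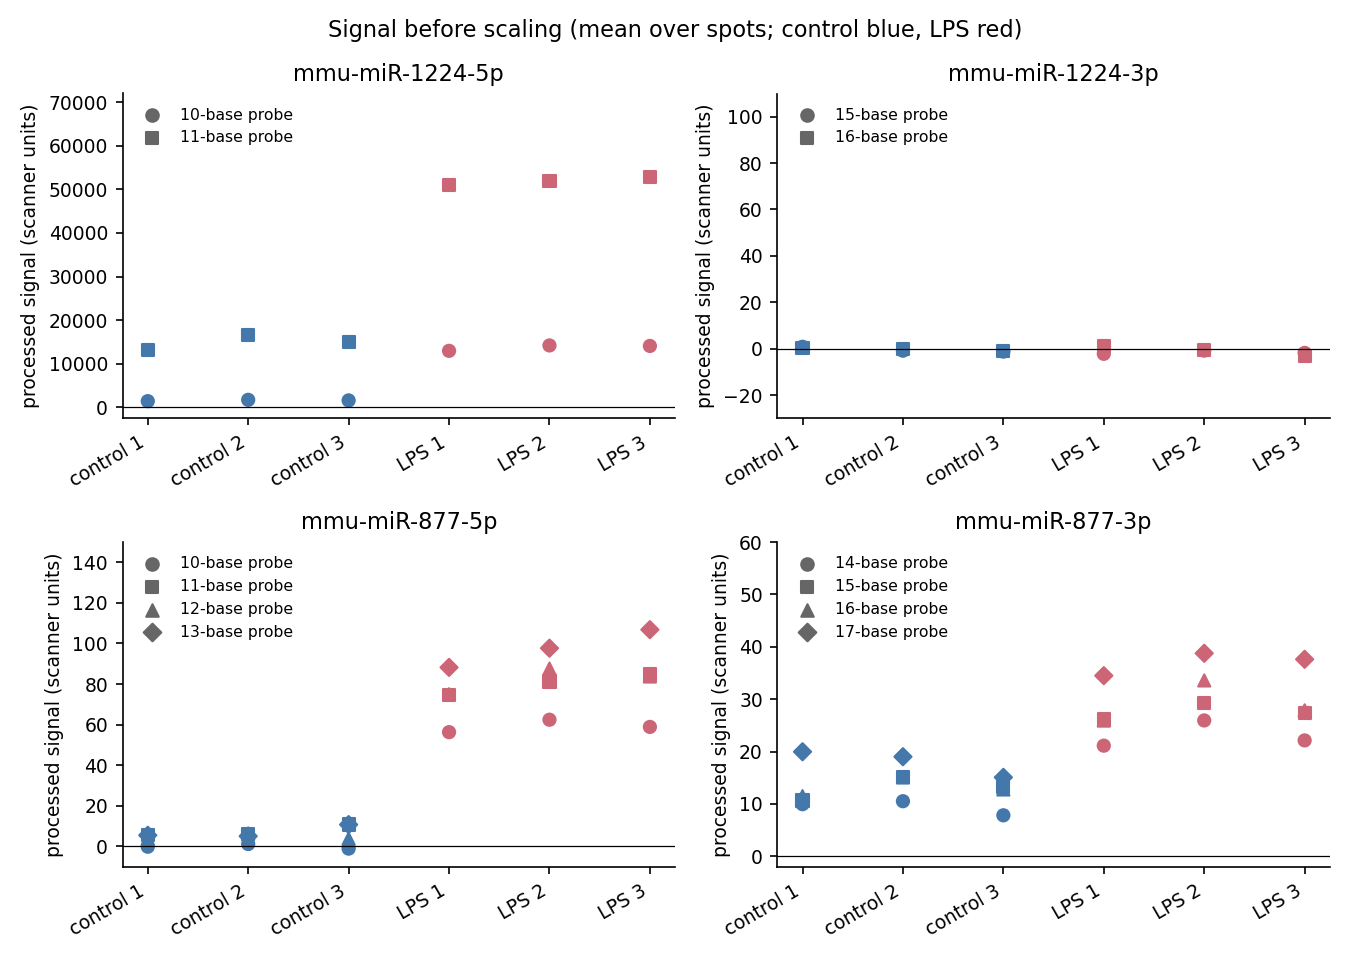
Processed signal of every probe of the 4 miRNAs on each array, before scaling, in scanner units; points are means over the spots of a probe, blue for control and red for LPS, and each panel has its own linear axis. miR-1224-5p is bright on all arrays, miR-1224-3p sits near 0 on all of them, and the miR-877 arms are higher on the LPS arrays.

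To compare samples, signals were put on a common scale by that 75th percentile and taken to log2. The fit with limma covered the 412 miRNAs that 3 of 3 arrays in either group detected, with Benjamini-Hochberg adjustment. On this scale most miRNAs moved: 65.5% were called higher in LPS and 26.7% lower, 92.2% in all, and the groups did not overlap for 93.4%. A called difference is therefore the rule in this series and not a mark of these miRNAs. The split follows the scaling: higher calls were 71.1% of all calls here, 85.1% when the percentile ran over all miRNAs, 90.3% without scaling, 90.7% with spike-in scaling and 28.5% after normexp background correction.

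Scaled this way, miR-1224-5p was lower in LPS by its brighter, 11-base probe. Its log2 scaled levels were 14.94, 15.04 and 14.94 in control and 14.66, 14.48 and 14.51 in LPS. All LPS samples lay below all controls. The LPS minus control difference was −0.42 (SE 0.06, 95% interval −0.58 to −0.27), a level in control 1.34 times that in LPS, with an adjusted p of 0.000663 in limma. Of the 198 miRNAs seen on every array 38.4% were called lower and 58.1% higher, and their median difference was 0.77, so miR-1224-5p lay below the middle of them. The direction of miR-1224-5p depends on the scaling. It was also negative with median centring (−0.74), quantile normalization (−0.85) and normexp (−0.28), but the difference was 0.77 with the percentile over all miRNAs, 1.80 without scaling and 1.99 with spike-in scaling. Within the first slide row, where LPS 1 is the only LPS array, it was −0.28, a value that has no spread among LPS samples behind it.

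The 10-base probe of miR-1224-5p moved the opposite way on the same scale. Its log2 scaled levels were 11.73, 11.76 and 11.71 in control and 12.69, 12.61 and 12.61 in LPS. All LPS samples of this probe lay above all controls, and its difference was also positive with median centring, normexp, the percentile over all miRNAs, no scaling and spike-in scaling. Its difference was 0.90 (SE 0.03, 1.87-fold higher in LPS, adjusted p = 6.91e-06 in limma over 955 probes), against −0.42 (SE 0.06, adjusted p = 0.0023) for the 11-base probe in that fit, where 53.5% of probes were called higher and 23.7% lower.

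The ratio of the probes within an array does not depend on how arrays are scaled. On the control arrays the 10-base probe of miR-1224-5p gave 10.8%, 10.3% and 10.6% of the signal of the 11-base probe. On the LPS arrays it gave 25.4%, 27.4% and 26.7%. The control arrays had a log2 ratio of −3.24 ± 0.03 and the LPS arrays one of −1.92 ± 0.05 (SD, n = 3). The difference was 1.32, or 2.50-fold. The two-sided exact permutation p was 0.1, the smallest that 3 against 3 samples allow. Dividing an array by 1 number leaves this ratio as it is, so the gap between the probes does not depend on the scaling. Whether their directions differ does depend on it. The probes pointed opposite ways on the main scale, with median centring and with normexp. Both were positive with the percentile over all miRNAs, without scaling and with spike-in scaling.

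**Figure D2:**
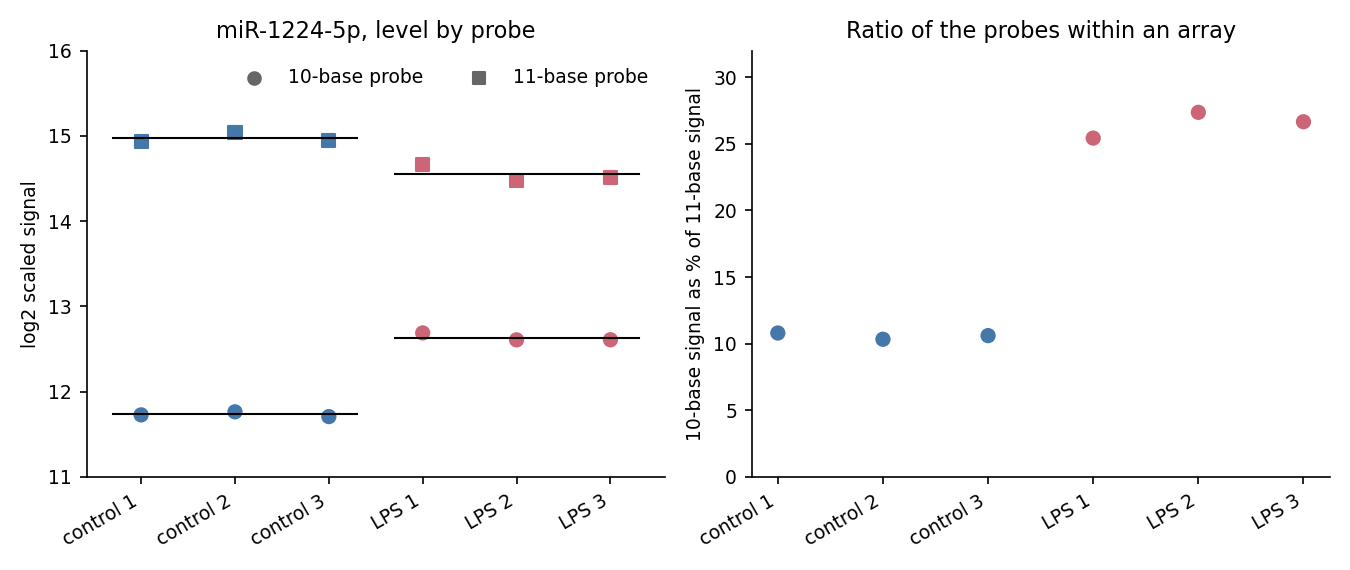
Left, log2 scaled signal of the 10-base and 11-base probes of miR-1224-5p on each array, with group means as lines; right, the signal of the 10-base probe as a percentage of that of the 11-base probe on the same array. On this scale the 11-base probe is lower in LPS (it is higher without scaling) and the 10-base probe higher, and their ratio goes from between 10.3% and 10.8% in control to between 25.4% and 27.4% in LPS.

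Probes of the same miRNA usually moved together. Among 115 miRNAs detected on all arrays with at least a pair of probes well above background on each array, the highest and lowest probe changes were apart by a median of 0.12 on the log2 scale, with quartiles of 0.051 and 0.29. The gap of 1.32 for miR-1224-5p ranked 4 of 115. The larger gaps were those of miR-7048-5p (1.96), miR-3473e (1.78) and miR-7020-5p (1.51). On the main scale, probes pointed in opposite directions for 3 of the 115 miRNAs, 2.61%, namely miR-1224-5p, miR-3473e and miR-6908-5p. Such a count depends on the scaling and was not made on the other scales. The change of the shortest probe was above that of the longest for 59 of the 115, with a median difference of 0.0035. The change of the dimmest probe was above that of the brightest for 68 of the 115, with a median difference of 0.026. The part of probe length or brightness in the gap of miR-1224-5p was not tested. Among the 6 probes of 10 bases the changes ran from −2.32 to 0.90, the top being that of miR-1224-5p, and among the 8 of 11 bases from −2.27 to 3.32.

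**Figure D3:**
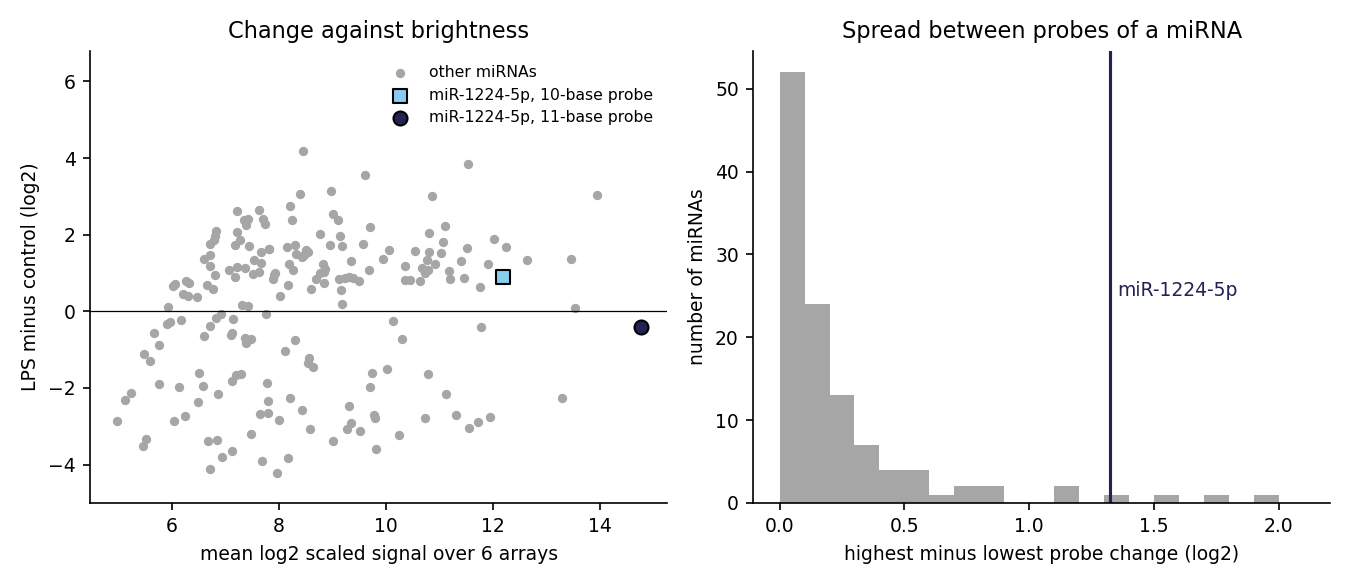
Left, LPS minus control (log2) against mean log2 scaled signal for the 198 miRNAs detected on all arrays, with the probes of miR-1224-5p marked; right, a histogram over 115 miRNAs of the gap between the highest and lowest change among their probes, with miR-1224-5p as a line. On the scale of the main comparison the 11-base probe is the brightest point, at −0.42, the 10-base probe is at 0.90, and their gap of 1.32 lies in the sparse right tail.

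The miRNAs whose pattern over the 6 arrays was nearest to that of miR-1224-5p by its 11-base probe are given as a description. Likeness was the root mean square difference of the log2 scaled levels after centring each miRNA on its own mean, over 197 candidates. The nearest were miR-671-5p (0.0247), miR-5126 (0.0476), miR-711 (0.0758), miR-5107-5p (0.0834) and miR-134-5p (0.103). Their own LPS minus control differences were −0.39, −0.40, −0.56, −0.32 and −0.57, values that the choice by likeness on the same arrays keeps near that of miR-1224-5p. Among the 20 brightest miRNAs by mean level, a list drawn after the values were known, 12 were called higher and 7 lower, with a median of 0.86.

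miR-1224-3p, the arm at the splice acceptor of the same intron, was not detected on any of the 6 arrays. Its 16-base probe gave 0.41, 0.019 and −1.2 on the control arrays and 1.1, −0.59 and −3.2 on the LPS arrays, in scanner units before scaling. Its 15-base probe lay between −2.2 and 0.81 on the same arrays. None of the spots used was well above background. The dimmest miRNA called well above background read 31.9 to 34.4 on the control arrays and 26.3 to 36.0 on the LPS arrays. That is no detection limit, since the file's own flag counted miR-320-3p as detected at 25.8, but every miR-1224-3p signal lay far under both. It passed no filter, was not tested, and has no fold change.

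miR-877-5p was detected on 3 of 3 LPS arrays and on 0 of 3 control arrays. Its brightest probe, of 13 bases, gave 5.5, 5.1 and 10.8 on the control arrays and 88.2, 97.7 and 107 on the LPS arrays before scaling. The LPS arrays were all higher, while no control array was well above background. The other 3 probes of miR-877-5p read 56.3 to 87.7 in LPS and at most 10.8 in control. Without scaling, miR-877-5p was at least 2.90-fold higher in LPS, taking the dimmest well-measured signal of each control array as the bound. With arrays scaled to the spiked-in RNAs it was at least 3.31-fold higher. Its detection in LPS alone brought miR-877-5p into the comparison, so a rise was built in. The 198 miRNAs detected on all arrays had a median log2 difference of 2.99 without scaling and 3.18 with spike-in scaling. The bounds do not show a rise beyond that.

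After scaling to the miRNAs detected on all arrays, no bound above 1 remained for miR-877-5p. The scaling divides LPS arrays by a larger number, which places the well-measured signal of a control array above the LPS level of miR-877-5p. On that scale its log2 levels were 3.72, 3.35 and 4.50 in control and 5.49, 5.42 and 5.56 in LPS. The fitted difference was 1.64 (SE 0.28, adjusted p = 0.00135 in limma), and the 4 probes gave 1.25 to 1.82. miR-877-5p passed the filter through LPS alone, and these control levels are signals not well above background. The size of the difference is therefore not readable, and its p-value is no support for a rise. With normexp the difference was −0.70. Levels were floored at 3.31 on the log2 scale, which was 4.15 to 4.90 scanner units on control arrays and 19.4 to 22.5 on LPS arrays. Within the first slide row, with LPS 1 as the only LPS array, the difference was 1.67.

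miR-877-3p was also detected on 3 of 3 LPS arrays and on 0 of 3 control arrays, but only just. Its brightest probe, of 17 bases, gave 20.0, 19.0 and 15.1 on the control arrays and 34.5, 38.8 and 37.6 on the LPS arrays before scaling. All LPS arrays were above all controls, and the mean signal of the 4 probes was 2.05 to 2.45 times that in control. Only the 17-base probe was well above background in LPS. Without scaling miR-877-3p was at least 1.1-fold higher in LPS, and with spike-in scaling at least 1.26-fold.

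The scaled fit turned miR-877-3p around. Its log2 scaled levels were 5.57, 5.26 and 4.98 in control and 4.13, 4.09 and 4.06 in LPS. The difference was −1.18 (SE 0.14, adjusted p = 0.000246 in limma), and all 4 probes were below 0, from −1.18 to −0.92. A miRNA detected in LPS alone was thus called lower in LPS. Its control signals were not well above background, no bound above 1 could be given, and its direction is not readable on this scale. Without scaling the same fit gave 0.94. For the 3 tested miRNAs the fit called 1 higher and 2 lower, where 65.5% of all tested miRNAs were called higher and 26.7% lower. Of these calls only that of miR-1224-5p compares signals measured in both groups.

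**Figure D4:**
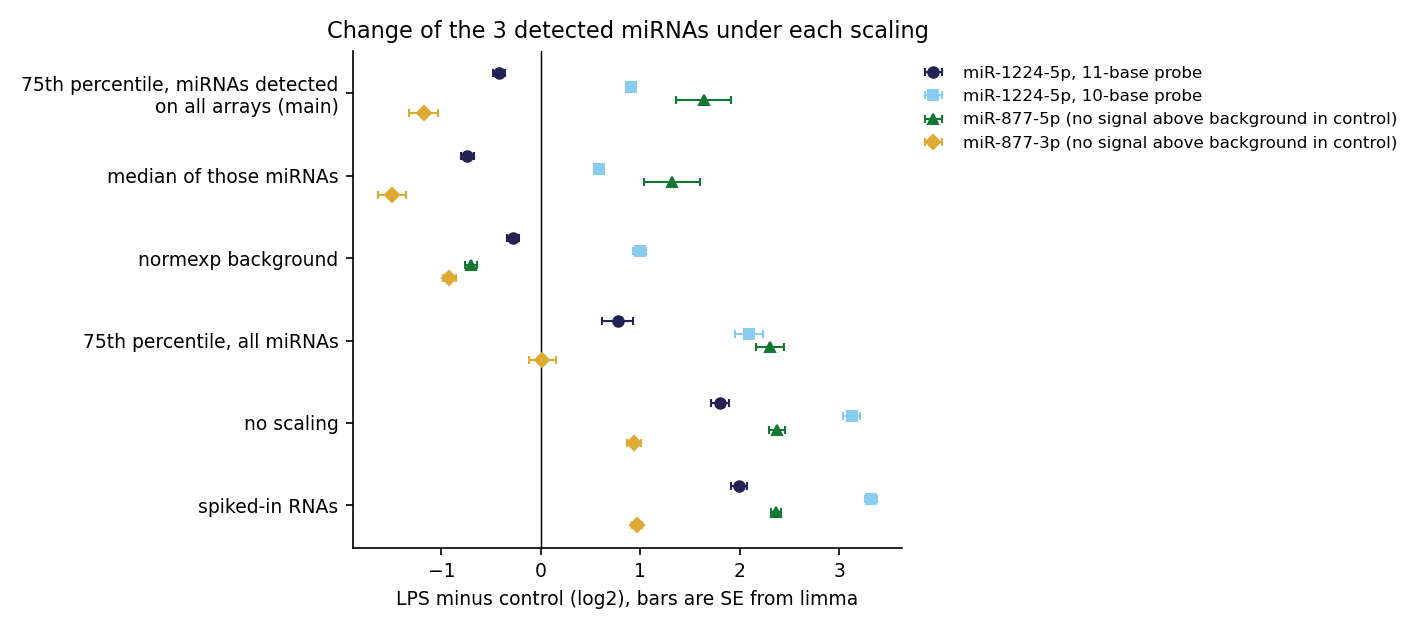
LPS minus control (log2, with the SE from limma) of the probes of miR-1224-5p and of miR-877-5p and miR-877-3p, under 6 ways of putting the arrays on a common scale. The 10-base probe of miR-1224-5p is above 0 under each, from 0.59 to 3.32, whereas its 11-base probe and miR-877-3p lie on either side of 0 depending on the scaling, and miR-877-5p is below 0 with normexp alone, at −0.70.

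The authors' deposited log2 table gives miR-1224-5p 14.16, 14.18 and 14.18 in control and 14.02, 13.93 and 13.93 in LPS. The LPS values were all lower, by 0.21 (SE 0.04, adjusted p = 0.00235 in limma), and the sources used here do not say how the probes of a miRNA were joined. In that table miR-877-5p was at 2.82, 2.90 and 2.96 in control and at 5.12, 5.10 and 5.29 in LPS, a difference of 2.28 (adjusted p = 3.89e-07 in limma). Its control values lie near the medians of all rows given below, and no control array detected it. It entered the fit through its detection in LPS alone, so the size of this difference is not readable either. miR-877-3p was at 4.09, 4.21 and 3.47 against 3.60, 3.63 and 3.57; the groups overlapped and the difference of −0.32 did not pass (adjusted p = 0.16). miR-1224-3p lay between 2.65 and 2.75, close to the medians of 2.73 to 2.74 of all rows.

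The arms of 1 hairpin could not be tested against each other, because in neither hairpin were both arms detected on all arrays. In miR-1224 the 5p arm was measured on 6 of 6 arrays and the 3p arm on none. In miR-877 both arms passed detection in LPS alone.

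Of 7 other miRNAs made without Drosha that were looked for, 5 were detected on no array, as were 1417 of all 1881 miRNAs. These 5 were the mirtron miRNAs miR-702-5p, miR-702-3p, miR-1981-5p and miR-1981-3p and the arm miR-320-5p. miR-320-3p, cut from a hairpin that transcription itself begins, read 25.8, 31.9 and 30.9 on the control arrays and 363, 386 and 393 on the LPS arrays before scaling. The groups were far apart, although only 1 control array was well above background. After scaling it rose by 1.47 on the log2 scale (SE 0.05, adjusted p = 2.48e-07 in limma). miR-484, of the same Drosha-independent kind, read 49.4, 52.4 and 53.0 in control and 441, 587 and 555 in LPS, and rose by 1.12 after scaling (SE 0.07, adjusted p = 6.21e-06). Both tested members of this list were called higher, as were 65.5% of all 412 miRNAs tested, with a median of 1.30 against 0.85. The hairpin of miR-1981 opens with GU and closes with AG. That of miR-484 opens with CU and closes with UA, and the listed hairpin of miR-702, longer at 109 bases, opens with CG and closes with CC.

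The miRNAs from miR-6896 to miR-7094 are compared here because 21 of their 180 hairpins in RefSeq (11.7%) open with GU and close with AG, against 9 of 825 others (1.09%), among them Mir1224 and Mir877. Like miR-1224 they were seen almost only as 5p arms: 128 of 201 5p arms were detected on no array, against 198 of 199 3p arms, the exception being miR-6948-3p. Over all 1881 miRNAs, 1417 were detected on no array. The 5p and 3p arms of other miRNAs were not counted apart, so this likeness is not shown to be particular to these miRNAs. Of 62 tested 5p arms 27 were called higher and 32 lower, 22 of the 62 being detected in LPS only. Over all 412 tested miRNAs 65.5% were higher and 26.7% lower, and for 187 detection was in LPS samples alone. Of the 35 seen on every array 12 were higher and 23 lower, with a median of −1.61 against 0.77 over all 198 such miRNAs. miR-1224-5p at −0.42 lies between these medians.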

How the data were processed

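miRNAs were measured in exosomes of 3 control and 3 LPS samples. Per the file headers, the authors' scanner output holds linear intensity values, background-subtracted by Agilent's Feature Extraction software in release 10.7.1.1. Version 9.1 stands in the submitters' processing notes. The authors also deposited a log2 value table whose normalization the sources used here do not give.

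Intensities were averaged over non-outlier spots, and a miRNA was taken at its brightest probe. Detection used the flag in the files; a probe counted as well above background when a share of 0.5 of its spots was flagged so. Arrays were scaled to the 75th percentile, floored at 9.89 and fitted with limma 3.58.1 in R 4.3.3 (threshold 0.05). On simulated data over 412 miRNAs the fit called 86% of the 0.5 log2 changes, 98% of the 1 log2 changes, and 4 of 212 unchanged miRNAs. The real data differ from this, with 92.2% of tested miRNAs called, so these rates need not hold for them. The 26 alternative settings cover scaling, background, probes, filters, floors, variance, blocks and each of the 6 replicates left out in turn; quantile normalization, mean over probes, gene total and value table have no fit per probe. The members and lists were chosen with earlier results of these data known. Named miRNAs are the 4 members, their 5 nearest miRNAs, the macrophage checks and Drosha-independent miRNAs; others were named after their values were seen. Of the array's 1881 miRNAs, 1608 matched RefSeq by name, including all 4 members.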

Additional observations from a re-analysis of the deposited data

How the results depend on the processing

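Settings are given as LPS minus control on the log2 scale. For miR-1224-5p, 21 of 26 alternatives kept a negative called difference, and 5 reversed it: 0.77 with the percentile over all miRNAs, 1.80 without scaling, 1.99 with spike-in scaling, 0.24 with the mean over probes and 0.094 with the gene total signal (adjusted p = 0.16), which uses a feature size of 0.6 on control arrays and 0.812 to 0.829 on LPS arrays. All 5 reversals came with changes of the scaling or of how probes are joined. The filters on the detection flag, the floors, the trended variance and the replicate block left the value at −0.42. Such settings could not reverse it, so counts of alternatives do not measure stability. Leaving out 1 replicate gave −0.53 to −0.38. In the probe fit the 11-base probe reversed at 0.77, 1.80 and 1.99 under the same 3 scalings and was −0.53 to −0.38 with a replicate left out; the 10-base probe stayed positive and called in 22 of 22, from 0.59 to 3.32. The gap between them was 1.28 with normexp, 1.27 within slide row 1, and 1.30 to 1.35 with a replicate left out. miR-877-5p reversed with normexp (−0.70), and its call ended with well above background as detection (0.042). Within slide row 1, an arm of 1 LPS array, it was 1.67, and the missed threshold there says nothing of stability; leaving out a replicate gave 1.39 to 1.97. miR-877-3p reversed with the percentile over all miRNAs (0.014), without scaling (0.94), with spike-in scaling (0.97) and with the gene total signal (0.76). Its call ended with the value table (−0.32) and with well above background as detection (−0.070). Within slide row 1 it was −1.10, with the same single LPS array; leaving out a replicate gave −1.32 to −1.12. With the highest floor both miR-877 arms sat on the floor on all arrays and gave no value. The cause of these changes was not tested.

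Over all miRNAs tested, 270 were called higher and 110 lower. Higher calls numbered 113 with normexp, 115 over miRNAs detected on all arrays, 176 with well above background as detection and 169 with the highest floor. Lower calls numbered 59 with the percentile over all miRNAs, 39 without scaling, 38 with spike-in scaling, 284 with normexp and 269 with no filter. With a replicate left out the counts were 264 to 272 and 108 to 119. Higher calls were 71.1% of calls, but 85.1% with the percentile over all miRNAs, 90.3% without scaling, 90.7% with spike-in scaling and 28.5% with normexp; the median of the 198 miRNAs detected on all arrays moved from 0.77 to 1.96, 2.99, 3.18 and 0.11. The replicate block left miR-1224-5p at −0.42 (adjusted p = 0.00525 in limma) and changed no call of a member. Deviations of same-numbered samples correlated at −0.40, −0.22 and −0.28, and those of differently numbered samples at −0.32 to 0.43. These values show no pairing by number, but so few cannot exclude one.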
